A study of Mus musculus with 30 samples.

Results

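The genes examined are those of the aryl hydrocarbon receptor pathway: Ahr, Arnt, Ahrr, Tiparp, Cyp1a1, Cyp1a2 and Cyp1b1. They were chosen by name, and every array probe designed to a RefSeq transcript of one of them was taken. This gave 8 of 41174 probes and 7 of the 17016 genes that could be named on the array. Cyp1a2 had 2 probes and each other gene had 1.

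Livers came from female C57BL/6 mice of the supplier Taconic, acquired when 5 to 6 weeks old, and were measured on 2-colour Agilent arrays with 1 array per mouse. The exposed group had 14 mice that were instilled with 0.162 mg of Printex 90, carbon black particles of nanometre size. The particles had been sonicated in MilliQ water with 0.9% NaCl and 10% cell-free lavage fluid, and 40 µl of this was followed by 150 µl of air. The control group had 16 mice, whose treatment is labelled only as none. The time between instillation and sampling is not given in the sources used here, and the series text mentions 6 mice per group where 14 and 16 arrays were analysed. Animal numbers form 3 stretches of neighbouring numbers in each group, called runs 1, 2 and 3 here. The exposed runs held 4, 5 and 5 animals and the control runs 6, 5 and 5, and the labels do not say what separates the runs or which belong together.

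The aryl hydrocarbon receptor is a transcription factor that rests in the cytoplasm with chaperones. When it binds a ligand, such as a polycyclic aromatic hydrocarbon, a dioxin or a product of tryptophan, it enters the nucleus, pairs with ARNT and binds DNA at a short motif with the core GCGTG. Cyp1a1, Cyp1b1, Tiparp and Ahrr are textbook targets, and liver Cyp1a1 induction is the usual readout of the receptor. Cyp1a2 is induced as well, but hepatocytes around the central vein make it without any inducer. Whether particles put into the lung changed these genes in liver is the question that the comparison of exposed and control animals addresses.

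Promoters of 3 genes are shown. Cyp1a1 and Cyp1a2 were chosen as neighbours on chromosome 9 that face away from each other, with liver signal near background for Cyp1a1 and bright for Cyp1a2. Ahrr was chosen because its window held the most copies of the core. Each sequence is the 250 bases before the gene's start, read in the direction of the gene, from RefSeq on build GRCm38.p6, with the core GCGTG, or CACGC where it lies on the other strand, in capitals. The first is chr9:57697363-57697612 on the plus strand, the second chr9:57683656-57683905 on the minus strand and the third chr13:74292332-74292581 on the minus strand.
Cyp1a1: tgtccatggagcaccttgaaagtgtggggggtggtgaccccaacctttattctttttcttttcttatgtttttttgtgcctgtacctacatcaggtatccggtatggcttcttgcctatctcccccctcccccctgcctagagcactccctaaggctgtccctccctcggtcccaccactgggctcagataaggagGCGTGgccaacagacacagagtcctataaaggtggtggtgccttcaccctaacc
Cyp1a2: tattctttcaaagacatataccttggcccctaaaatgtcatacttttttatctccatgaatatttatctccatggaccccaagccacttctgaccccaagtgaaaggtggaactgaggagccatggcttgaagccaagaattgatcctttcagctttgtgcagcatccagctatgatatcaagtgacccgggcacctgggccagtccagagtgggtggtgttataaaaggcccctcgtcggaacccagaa
Ahrr: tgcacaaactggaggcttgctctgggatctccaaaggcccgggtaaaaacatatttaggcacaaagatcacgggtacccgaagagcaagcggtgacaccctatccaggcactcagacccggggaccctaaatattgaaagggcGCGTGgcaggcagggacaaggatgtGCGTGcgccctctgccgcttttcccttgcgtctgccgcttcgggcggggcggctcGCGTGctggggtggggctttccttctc
Cyp1a1 had 1 core, starting 54 bases before the gene's start, and Cyp1a2 had 0. Ahrr had 3, and 1 of them lay within the longer form TNGCGTG or its reverse complement, which 4.10% of all 32851 promoter windows of this length held. The table of promoters held 6 of the 7 genes, all but Ahr, and 5 of these 6 had the core (Tiparp, Arnt and Cyp1b1 with 1 each), against 28.2% of all windows. A match says only that the letters are there. The best-known response elements of Cyp1a1 lie further upstream than this window.

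Liver RNA carried the dye Cy5 and a universal mouse reference RNA the dye Cy3 on every array, so a log2 ratio of Cy5 over Cy3 compares each animal's liver with the same reference. Dyes were never swapped, so a dye bias of a probe stays in its ratio but is common to both groups. A probe counted as detected on an array when the scanner software called its Cy5 signal well above background, and it was tested when this held on at least 14 of the 30 arrays. On these terms 5 of the 7 genes were measurable. Ahr, Tiparp and both Cyp1a2 probes were detected in 14 of 14 exposed and 16 of 16 control livers. Arnt was detected in 14 of 14 exposed and 15 of 16 control livers, and Cyp1b1 in 10 of 14 exposed and 12 of 16 control livers. Cyp1a1 and Ahrr were too dim to be tested. No member probe was saturated.

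Cyp1a1, the pathway's most inducible enzyme, was detected in 4 of 14 exposed and 1 of 16 control livers. Its raw Cy5 signal had a lowest value of 86, a median of 99.75 and a highest value of 146 in exposed livers, against 83.5, 98.25 and 146 in control livers, in the scanner's arbitrary units. The median ratio of this signal to the local background was 1.16 in exposed and 1.19 in control livers. The groups covered nearly the same span just over background. By run, detection was 0 of 4, 2 of 5 and 2 of 5 exposed livers and 0 of 6, 1 of 5 and 0 of 5 control livers.

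Detection of Cyp1a1 moved with the version of the scanner software. Of the 5 arrays read with the older version, 10.1.1.1, which lay on 2 slides, 4 had the probe well above background, namely 3 of 3 exposed and 1 of 2 control livers. Of the 25 arrays read with version 10.7.3.1, 1 did, in 1 of 11 exposed and 0 of 14 control livers. With that version the highest raw signal was 109 in exposed and 103.5 in control livers. The part of the version, or of the slides it was used on, in the detection calls was not tested. The Cy3 signal of Cyp1a1 was well above background on 1 of 30 arrays. The log2 ratio of 0.17 ± 0.17 in exposed and 0.12 ± 0.16 in control livers (SD, n = 14 and 16) is therefore a ratio of 2 signals near background and not a level of Cyp1a1.

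Ahrr encodes the receptor's repressor, which competes for ARNT and is itself a target. It was detected in 3 of 14 exposed and 4 of 16 control livers, of which 3 lay among the 5 arrays of the older version and 4 among the other 25. Raw Cy5 had a lowest value of 91, a median of 101.25 and a highest value of 134 in exposed livers, against 90, 99.5 and 169 in control livers. Control animal 572 held the 169, far over the next control value of 143. In the reference RNA the same probe was well above background on 30 of 30 arrays. The log2 ratio averaged -0.44 ± 0.14 in exposed and -0.42 ± 0.20 in control livers (SD).

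**Figure D1:**
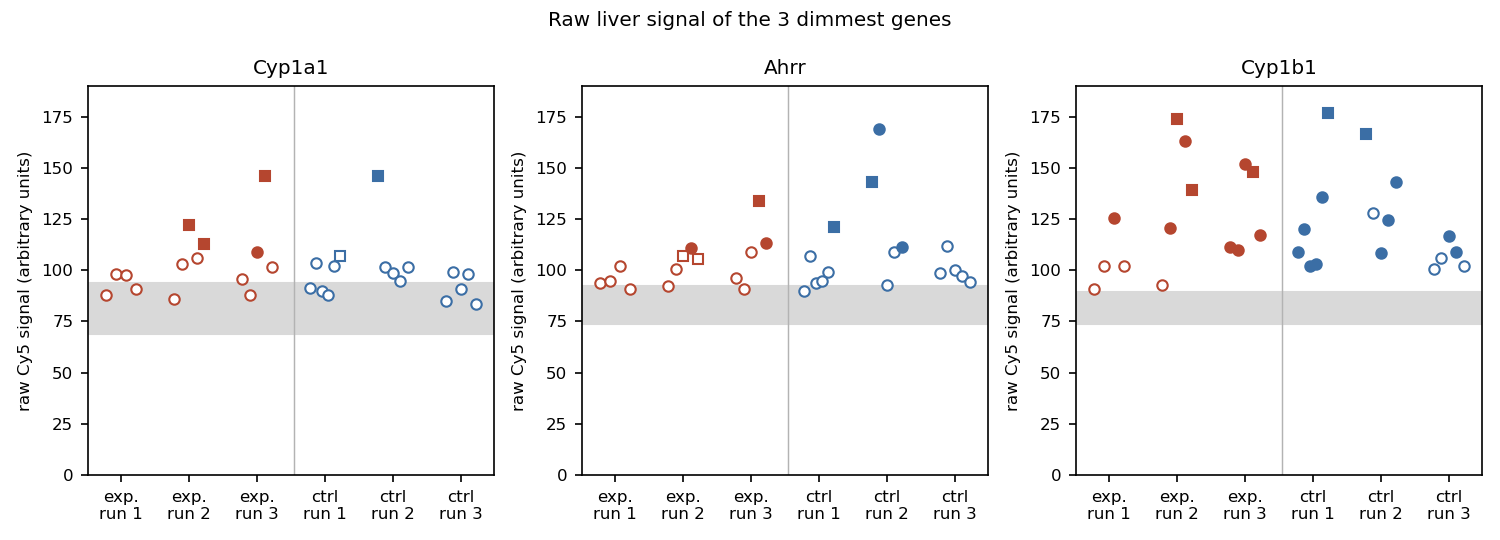
Raw Cy5 signal (arbitrary units, linear axis from 0) of Cyp1a1, Ahrr and Cyp1b1 in each animal, exposed runs left and control runs right. Filled symbols were well above background, open ones were not, squares are arrays read with software version 10.1.1.1, and the grey band spans the local background of that probe over the 30 arrays. Most Cyp1a1 and Ahrr points are open and lie just over the band in both groups, while Cyp1b1 has 22 filled points of 30.

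Ahr, the receptor itself, had more Cy5 than Cy3 in every animal. Its log2 ratio had a lowest value of 0.83, a median of 1.44 and a highest value of 2.03 in exposed livers, against 0.84, 1.46 and 2.06 in control livers. The groups covered the same span. The probe was printed 10 times on each array, and the SD over these spots was 0.04 (median over arrays), against an SD of 0.34 over the 30 animals in the same scanner-processed values. The spots of an array share 1 labelling and hybridisation, so the SD over animals also holds differences between arrays, and 30.1% of the ratio's variance lay between slides (median of all tested probes 37.5%). The SD over animals, 0.31 after normalisation, was larger than that of 86.8% of tested probes.

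Arnt encodes the partner with which the receptor binds DNA. The log2 ratio had a lowest value of -0.06, a median of 0.21 and a highest value of 0.47 in exposed livers, against -0.08, 0.13 and 0.35 in control livers. Both dyes were thus close to each other, and the groups overlapped. Its SD over 30 animals was 0.12, below the median of 0.18 over all tested probes, but it was 0.23 with scanner-processed signals. Raw Cy5 was low, 136 to 223 in exposed and 121 to 274 in control livers.

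Tiparp encodes a mono-ADP-ribosyltransferase that the receptor induces and that in turn restrains the receptor. Its log2 ratio had a lowest value of -2.07, a median of -1.74 and a highest value of -1.27 in exposed livers, against -2.19, -1.96 and -1.36 in control livers. All 30 livers were below the reference. The exposed median was higher, but the groups overlapped. Raw Cy5 ran from 323 to 678 in exposed and from 300.5 to 752.5 in control livers.

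Cyp1a2, which oxidises caffeine, arylamines and oestrogens, had far more Cy5 than Cy3 in every animal. The brighter probe had log2 ratios from 3.76 to 4.72 with a median of 4.31 in exposed livers, against 3.80 to 5.05 with a median of 4.35 in control livers. The 5.05 was that of control animal 596, whose Cy3 signal on this probe was not well above background and whose ratio was 8.78 with scanner-processed signals. The next control value was 4.89. The other probe had 3.53 to 5.06 with a median of 4.50 in 14 exposed livers, against 3.46 to 4.84 with a median of 4.37 in 15 control livers, as the spot of animal 596 was marked as an outlier by the scanner software. Animals within a group thus differed by over 1 log2 unit on the second probe. Raw Cy5 of the brighter probe was 3398 to 8333 in exposed and 2469 to 8068 in control livers.

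The 2 probes of Cyp1a2 ranked the animals alike. Over the 29 animals with both values, Pearson's r was 0.80 and Spearman's rho 0.78 (two-sided permutation p = 1e-05 for each, the smallest that 100000 resamples can give), and r was 0.80 without the 2 animals farthest from the median. The brighter probe minus the other ranged from -0.50 in control animal 547 to 0.48 in control animal 572, with an SD of 0.24. In animal 572 the Cy3 signal of the other probe was not well above background.

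Cyp1b1, an enzyme of steroid and hydrocarbon oxidation that is mostly made outside hepatocytes, was detected on the fewest arrays of the 5 tested genes. Its log2 ratio had a lowest value of -2.43, a median of -2.04 and a highest value of -1.54 in exposed livers, against -2.56, -2.14 and -1.59 in control livers. All livers were well below the reference, and the groups overlapped. Raw Cy5 was 91 to 174 in exposed and 100.5 to 177 in control livers, close to the background of the array.

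**Figure D2:**
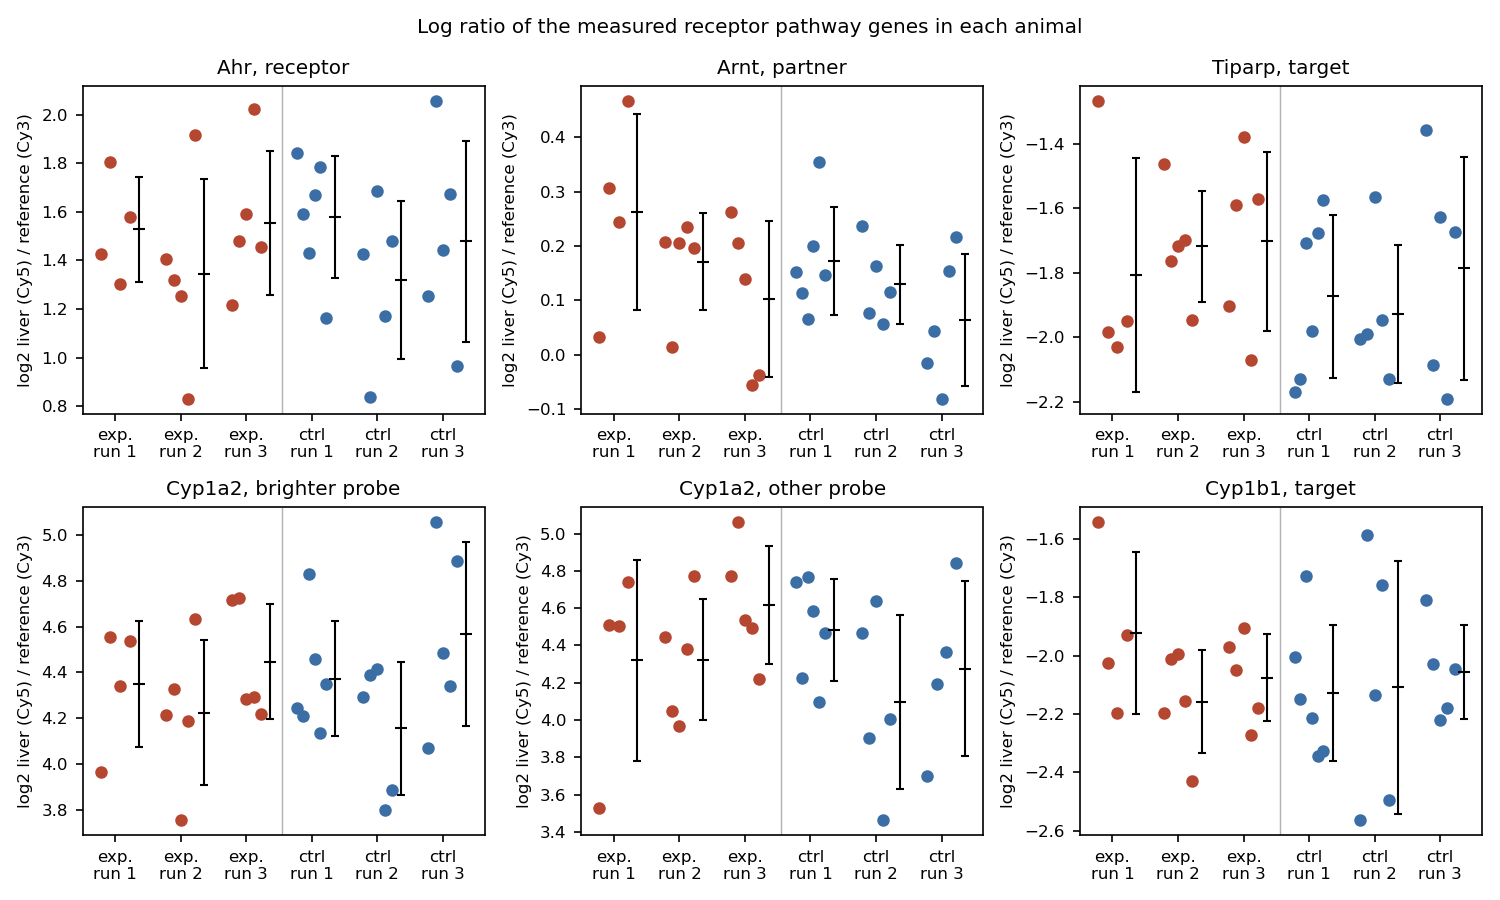
Log2 ratio of liver Cy5 over reference Cy3 in each animal for the 6 probes that could be tested, exposed runs left (red) and control runs right (blue). Black bars are the mean ± SD of a run (4 to 6 animals), and each panel has its own axis range. Exposed and control points overlap in every panel.

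No difference between exposed and control livers passed the test in any of the 5 measurable genes. The test was limma's moderated test, two-sided, adjusted by Benjamini and Hochberg's method across 23607 tested probes. At an adjusted p under 0.05, 0 of 5 genes were called in this comparison, where 0.0169% of all tested probes were called (4 probes, and 2875 at an unadjusted p under 0.05). None of the 5 genes reached an unadjusted p under 0.05. Ahr averaged 1.47 ± 0.31 in exposed and 1.47 ± 0.33 in control livers (SD), a difference of -0.02 ± 0.11 (SE, adjusted p = 0.961). Arnt averaged 0.17 ± 0.14 in exposed and 0.12 ± 0.10 in control livers, a difference of 0.05 ± 0.04 (adjusted p = 0.670).

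Among the targets, Tiparp had the largest difference of a single-probe gene, with means of -1.74 ± 0.26 in exposed and -1.86 ± 0.26 in control livers. The difference was 0.13 ± 0.09 (limma, adjusted p = 0.586). Cyp1b1 averaged -2.06 ± 0.21 in exposed and -2.10 ± 0.28 in control livers, a difference of 0.05 ± 0.08 (adjusted p = 0.865). Over all animals the SD of this dim probe was 0.24, but 0.59 with scanner-processed signals. The SE of Cyp1b1 thus holds for the main processing only. The brighter Cyp1a2 probe averaged 4.34 ± 0.28 in exposed and 4.37 ± 0.34 in control livers, a difference of -0.03 ± 0.10 (adjusted p = 0.943). The other probe gave 4.43 ± 0.39 and 4.30 ± 0.41 in exposed and control livers, a difference of 0.11 ± 0.13 (adjusted p = 0.792), so the probes disagreed in sign within their errors.

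The 95% intervals of these differences cover the spread between animals under this processing only. They ran from -0.24 to 0.20 for Ahr, from -0.04 to 0.14 for Arnt, from -0.24 to 0.18 for the brighter Cyp1a2 probe, from -0.12 to 0.22 for Cyp1b1 and from -0.05 to 0.31 for Tiparp, all on the log2 scale. The interval of the other Cyp1a2 probe was -0.16 to 0.38. With scanner-processed signals the brighter Cyp1a2 probe differed by -0.29 and Arnt by 0.15, both outside these intervals, and neither was called. Those Cyp1a2 signals include control animal 596, whose Cy3 on this probe was not well above background. Their SD over animals was 0.87, against 0.31 after the main processing. The -0.29 was not tested without that animal. Bulk liver cannot tell fewer cells of a type from less RNA per cell. In the reference channel, which holds the same RNA on all arrays, the 6 probes differed between the exposed and control arrays by -0.05 to 0.06 (adjusted p from 0.919 to 0.991), with 0 of 5 genes and 0% of all tested probes called.

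**Figure D3:**
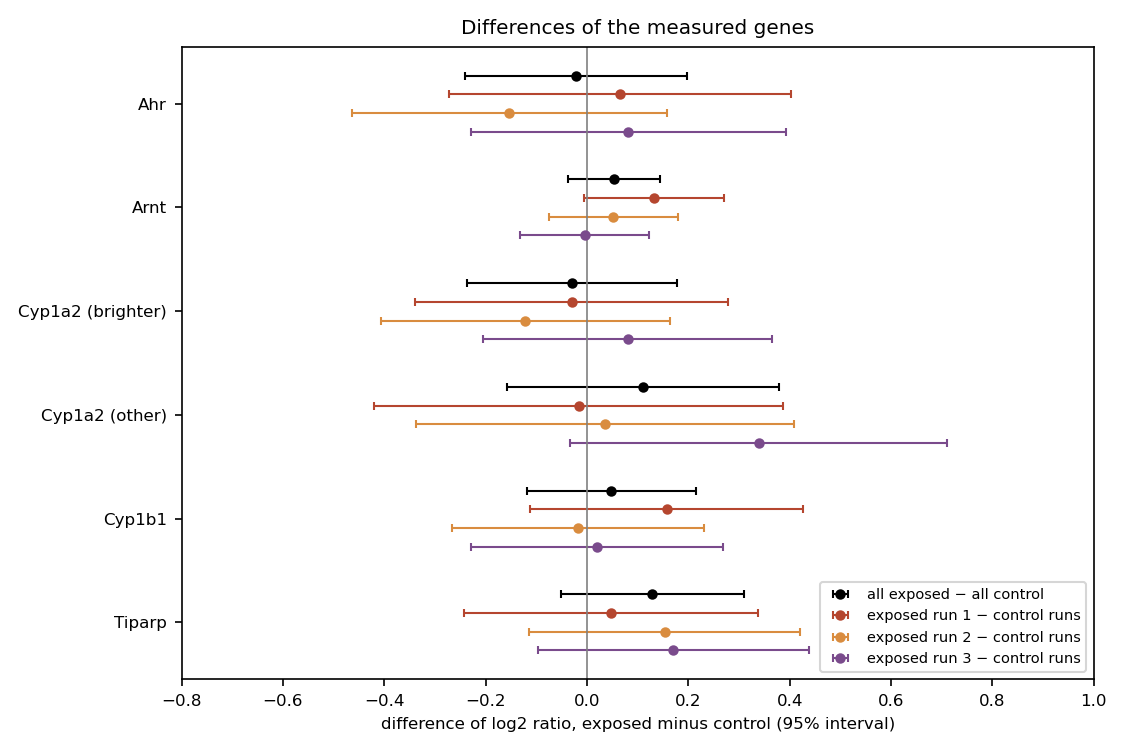
Difference of the log2 ratio, exposed minus control, with its 95% interval from limma, for all animals (black) and for each exposed run against the mean of the control runs (colours, n = 4, 5 and 5 exposed against 16 control animals). Every interval includes 0.

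Exposed livers always lay on array positions 3 and 4 of a slide and control livers on 1 and 2, so position and group cannot be told apart. Runs were tied to position as well. All arrays of exposed run 1 lay on position 3 and all of exposed run 3 on 4. Those of control run 1 lay on 1 and those of control run 3 on 2. Only run 2 of each group had both positions, so differences between runs 1 and 3 cannot be told apart from position. Of the 9 slides, 7 held both groups, and differences were also taken within each of these. Tiparp was higher in exposed livers on 7 of 7 slides, by 0.01 to 0.40 with a median of 0.12. The 0.40 came from the slide that held exposed animal 176, whose Tiparp ratio was the highest of all 30. With slide as a fixed term its difference was 0.14 (limma, adjusted p = 0.612). Ahr was higher on 3 of 7 slides, Arnt on 5, the brighter Cyp1a2 probe on 5, the other on 4 and Cyp1b1 on 4. Their differences had both signs. The widest span was that of the other Cyp1a2 probe, from -0.50 to 0.56, followed by Ahr, from -0.80 to 0.14.

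**Figure D4:**
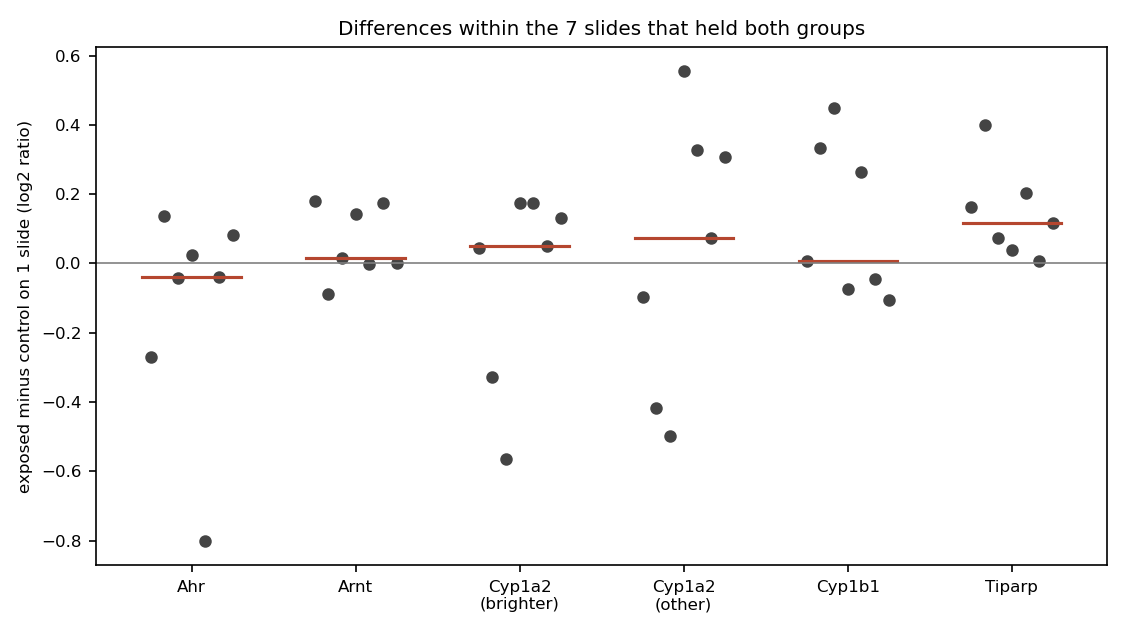
Mean log2 ratio of the exposed minus that of the control animals within each of the 7 slides that held both groups, 1 point per slide (slides ordered left to right within a gene), with the median as a red line. All 7 points of Tiparp lie above 0, from 0.01 to 0.40, while the other probes have points on both sides.

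Differences of the 5 genes across the runs of neighbouring animal numbers did not pass the test either. The moderated F test of limma called 0 of 5 genes among the exposed runs, where 4.13% of all tested probes were called, and 0 of 5 among the control runs, where 0.089% were called. Adjusted p lay between 0.561 and 0.881 for the 6 probes among exposed runs and between 0.795 and 0.998 among control runs, and 0 of the 6 probes had an unadjusted p under 0.05 in either test. Of all 23607 tested probes, 4603 did among exposed runs and 1659 among control runs. The widest spread of run means was that of the brighter Cyp1a2 probe among controls, with 4.37 ± 0.25, 4.16 ± 0.29 and 4.57 ± 0.40 in runs 1, 2 and 3 (SD, F test of limma, adjusted p = 0.795). Run 3 held animal 596, and the largest fitted difference between control runs was 0.39 with that animal and 0.26 without it. Among exposed runs the same probe averaged 4.35 ± 0.27, 4.22 ± 0.31 and 4.45 ± 0.25. The other Cyp1a2 probe, without animal 596, averaged 4.48 ± 0.27, 4.10 ± 0.47 and 4.28 ± 0.47 in control runs, so run 1 and not run 3 was highest. In exposed runs it averaged 4.32 ± 0.54, 4.32 ± 0.32 and 4.62 ± 0.32.

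Ahr was lowest in run 2 of both groups, but highest in exposed run 3 and in control run 1. Exposed runs 1, 2 and 3 averaged 1.53 ± 0.22, 1.35 ± 0.39 and 1.55 ± 0.30, and control runs 1.58 ± 0.25, 1.32 ± 0.33 and 1.48 ± 0.41 (SD). Arnt averaged 0.26 ± 0.18, 0.17 ± 0.09 and 0.10 ± 0.14 in exposed runs and 0.17 ± 0.10, 0.13 ± 0.07 and 0.06 ± 0.12 in control runs, with run 1 highest in both. These orders were within the spread of the animals. Run 1 lay on array positions 1 and 3 and run 3 on 2 and 4, so an order by run also follows position. Tiparp averaged -1.81 ± 0.36, -1.72 ± 0.17 and -1.70 ± 0.28 in exposed runs, against -1.87 ± 0.25, -1.93 ± 0.21 and -1.79 ± 0.34 in control runs. Cyp1b1 averaged -1.92 ± 0.28, -2.16 ± 0.18 and -2.08 ± 0.15 in exposed runs, against -2.13 ± 0.23, -2.11 ± 0.43 and -2.06 ± 0.16 in control runs.

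Each exposed run was set against the mean of the control runs in the same limma fit. Exposed run 1 had the most differences of the 3 exposed runs, with 4.8% of all tested probes called, and 0 of 5 receptor genes were called in it. At that share 0 called is the usual count for 5 genes, so it does not set them apart from other genes. The nearest was Arnt, higher by 0.13 ± 0.07 (SE, unadjusted p = 0.0608, adjusted p = 0.296). Ahr differed by 0.06 ± 0.17, Cyp1b1 by 0.16 ± 0.13, Tiparp by 0.05 ± 0.14 and the brighter Cyp1a2 probe by -0.03 ± 0.15. Cyp1b1 was detected in 1 of the 4 livers of exposed run 1, and with scanner-processed signals its difference turned to -0.28. Ahr differed by -0.06 against control run 1 alone. In run 2, 0 of 5 genes and 0.0169% of probes were called, and in run 3, 0 of 5 genes and 0.131% of probes. At an unadjusted p under 0.05 the count was also 0 of 5 in all 3 runs, where 4407, 2433 and 3089 of 23607 tested probes passed. Ahr differed by -0.15 ± 0.15 in run 2 and by 0.08 ± 0.15 in run 3, Tiparp by 0.15 ± 0.13 and 0.17 ± 0.13. The largest value of all was that of the other Cyp1a2 probe in run 3, 0.34 ± 0.18 (adjusted p = 0.430), where the brighter probe gave 0.08 ± 0.14, and -0.35 with scanner-processed signals. The control mean behind the -0.35 includes animal 596, whose Cy3 on this probe was not well above background.

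Other genes of the pathway were examined in 4 lists. The receptor complex list holds the chaperones and coregulators, 9 of its 10 genes were testable, and 0 were called between exposed and control livers, with a median difference of -0.03 beside 0.01 over all tested probes. At an unadjusted p under 0.05, 2 of the 9 passed, as did 2875 of all 23607 tested probes. The smallest p in this list belonged to the coactivator Ncoa3, with a difference of 0.10 ± 0.04 (SE, limma, adjusted p = 0.351), and to the corepressor Nrip1, with -0.15 ± 0.07 (adjusted p = 0.364). Ptges3, a cochaperone of the resting receptor, differed by -0.07 ± 0.06. Of the other partners of ARNT, 3 of 7 were testable and 0 were called, also without adjustment, with a median of -0.01. Of these Hif3a differed by 0.05 ± 0.07 (adjusted p = 0.829) and Hif1a, the hypoxia factor, by -0.01 ± 0.04 (adjusted p = 0.969), while Epas1 differed by -0.01 ± 0.07 (adjusted p = 0.964).

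Further targets and enzymes of the receptor's gene battery gave 19 testable genes of 24, with 0 called (1 at an unadjusted p under 0.05) and a median of -0.03. Cyp2s1, a P450 that the receptor induces, had the smallest p, at -0.26 ± 0.10 (limma, adjusted p = 0.276), and Tgm2, a transglutaminase, differed by -0.17 ± 0.09 (adjusted p = 0.434). Nqo1, the quinone reductase of the battery, differed by -0.10 ± 0.08 (adjusted p = 0.649). Aldh3a1, a target that liver scarcely makes without an inducer, was detected on 2 of 30 arrays. The route from tryptophan to ligands gave 6 testable genes of 7, 0 called, also without adjustment, with a median of 0.10, and the smallest p were those of Aadat, 0.18 ± 0.17 (adjusted p = 0.728), and Kmo, 0.10 ± 0.10 (adjusted p = 0.750).

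Across runs, 1 of the 19 battery genes was called among the exposed runs and 0 among the control runs, and 0 in the other 3 lists. Over all tested probes, 4.13% were called among exposed runs and 0.089% among control runs. The called battery gene was Ugdh, which makes the UDP-glucuronate used in glucuronidation (F test of limma, adjusted p = 0.000303). Its log2 ratio in the 4 animals of exposed run 1 was 0.16, 0.61, 0.20 and 0.24, against -1.04 to -0.57 in exposed run 2 and -0.57 to -0.21 in exposed run 3, and -0.96 to 0.05 in control livers. All 4 animals of that run lay above every other animal. Against the control runs, 2 of 19 battery genes were higher in exposed run 1 and 0 lower, where 1.6% of all tested probes were higher and 3.19% lower.

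Ugdh was higher by 0.78 ± 0.12 (SE, limma, adjusted p = 0.000382) in that run and Slc46a3, a lysosomal transporter that dioxin induces in mouse liver, by 0.47 ± 0.12 (adjusted p = 0.0209). Slc46a3 was 2.58 to 3.43 with a median of 3.22 in exposed run 1, against 2.16 to 3.11 with a median of 2.59 in control livers, so the groups overlapped. Control run 1 had the highest control mean of both genes, -0.24 ± 0.24 for Ugdh and 2.85 ± 0.22 for Slc46a3. Against control run 1 alone the differences were 0.54 for Ugdh (adjusted p = 0.0924) and 0.24 for Slc46a3 (adjusted p = 0.520), and neither was called. Slc46a3 was also not called without exposed animal 177, 179 or 180 (adjusted p = 0.116, 0.135 and 0.0532). Fixed slide terms also ended this call (difference 0.44, adjusted p = 0.0869), as did a position term (0.38, adjusted p = 0.214). That term set array positions 2 and 4 against 1 and 3, so it overlaps with the runs. Runs 2 and 3 had 0 called genes in all 4 lists.

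The array measured liver, with Alb, Apoa1 and Hnf4a of hepatocytes and Glul and Cyp2e1 of the pericentral hepatocytes that hold Cyp1a2 detected on 30 of 30 arrays. Between exposed and control livers, 0 testable genes of the 9 lists of cell markers were called, where 0.0169% of all tested probes were called. So low a share makes 0 the usual count, and it does not show that the cell types were alike. Of the 6 neutrophil genes only 2 were testable. In exposed run 1, Ttr of the hepatocyte list was lower by -1.14 (limma, adjusted p = 0.00802) and Oat of the pericentral list by -0.62 (adjusted p = 0.0112), while 5 of 6 hepatocyte genes and 6 of 7 pericentral genes were not called. Spp1 of the bile duct list was the other marker called in that run, also lower (limma, adjusted p = 0.0462), where 4.8% of all tested probes were called. List medians in that run ranged from -0.36 for lymphocytes to 0.46 for the 2 testable neutrophil genes, beside -0.01 over all tested probes. Whether these markers bear on Ugdh and Slc46a3 was not tested.

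No pair of the 5 genes passed a test of whether they varied together from animal to animal. Of 10 pairs over the 30 animals, 0 were called after adjustment over the pairs, with adjusted permutation p from 0.347 to 0.989 and 0 pairs at an unadjusted p under 0.05. The largest was Ahr with Cyp1b1, with r = -0.32 and rho = -0.28 (two-sided permutation p = 0.0878 and 0.137), and r = -0.25 without the 2 animals farthest from the Ahr median. Ahr with Cyp1a2 gave r = 0.21 and rho = 0.20 (permutation p = 0.265 and 0.288). With values centred on each slide, 1 of 10 pairs was called, Cyp1a2 with Cyp1b1 at r = -0.50 (permutation, adjusted p = 0.048), where r was 0.00 without centring. That permutation moved centred values freely across slides and did not allow for the 9 slide means taken out. Its p is therefore likely too small, and the call cannot be relied on. With scanner-processed signals and no centring this pair had r = -0.54 (permutation p = 0.0061, adjusted p = 0.061). Those signals include the Cyp1a2 ratio of control animal 596, whose Cy3 was not well above background. The pair was not tested with these signals without that animal.

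Genes most like each of the 5 were sought among 12187 others by Pearson's r over the 30 arrays, which share the reference RNA and the array design. Cyp1a2 had the closest company, with Ehhadh (r = 0.93), Ppara (0.93) and Qprt (0.93), and 146 genes in all had r over 0.8 with it. Ehhadh is a peroxisomal enzyme of fat oxidation, Ppara a nuclear receptor for fatty acids and Qprt an enzyme of NAD synthesis. With scanner-processed signals, which again include the Cyp1a2 ratio of control animal 596, r was 0.66, 0.81 and 0.76. Ahr was most like Rnf43 (0.74), C2cd2l (0.71) and Usp46 (0.70), and 0 genes passed 0.8. Tiparp was most like Tbc1d20 (0.68), Csrnp1 (0.67) and Foxp1 (0.64), also with 0 over 0.8. Arnt, whose Cy5 was low, was most like Olfr1218 (0.78), Nudt18 (0.74) and Il27 (0.70), and with scanner-processed signals r was 0.67, 0.58 and 0.54. Cyp1b1 was most like Slc7a6 (0.82), Sae1 (0.80) and Pcbp3 (0.78), but with scanner-processed signals r was 0.54, 0.12 and 0.13, so these likenesses depended on how the dim signals were corrected.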

How the data were processed

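The authors hybridised liver RNA (200 ng, Cy5) against a universal mouse reference RNA (Cy3), per the labels' protocols. The deposited scanner files hold median foreground and background intensity per spot, read with Agilent Feature Extraction 10.7.3.1 (25 arrays) or 10.1.1.1 (5 arrays), per the file headers. Log2 ratios make up the value table that the authors deposited, and each of its 30 columns matched its own array best (r from 0.996 to 0.999 over 14296 bright spots, slopes from 0.992 to 1.09, column medians from -0.045 to -0.021).

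From the scanner files, background was corrected by normexp (offset 50) and ratios by loess within arrays (limma 3.58.1, R 4.3.3). Outlier spots were left out and spots of a probe averaged. Probes were named through their RefSeq accession. The tested probes had Cy5 well above background on at least 14 arrays, which left 12188 named genes, each represented by its brightest tested probe. Chromosomes are those of RefSeq on GRCm38.p6. The array design is older, so no probe positions are given. limma fits had slide as a random block (correlation 0.159, or 0.147 in the fit of 6 run means), and the script was tested on simulated data. The median Cy5 signal of an array was 104 to 162.5 in exposed and 107 to 196 in control livers, and Cy5 was well above background for 50.0% to 69.1% of probes in exposed and 42.8% to 79.2% in control livers. The number of arrays limits the precision. The labels do not say whether animals were handled in separate batches, so p-values measure the spread between these animals.

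The genes, lists and tests were chosen with earlier results of these data known. All 7 receptor genes are named, and from each list the called genes and the 2 of smallest p. Ptges3, Hif1a, Nqo1 and Aldh3a1 were named after their values were seen. Alternatives were no background correction, scanner-processed signals, median centring, the value table and other slide terms and filters. Others were an array position term, single control runs and leaving out animals or arrays. The position term set positions 2 and 4 against 1 and 3, not exposed against control positions, and it overlaps with the runs.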

Additional observations from a re-analysis of the deposited data

Results flagged for a closer look

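Within runs of 4 to 6 animals, 36 sets of values (6 probes in 6 runs) were searched for 1 animal far from the others of its run, and 2 were found. Chance alone would give such a gap in about 1 of 20 sets. In exposed run 1, animal 176 had a log2 ratio of -1.27 for Tiparp, while the other 3 animals lay between -2.03 and -1.95. In exposed run 2, animal 194 had 0.01 for Arnt, while the other 4 lay between 0.20 and 0.23. With scanner-processed signals animal 176 had -1.57, against -2.40 to -2.30 in the other 3, while animal 194 had 0.03, against 0.14 to 0.48 in the other 4. No cause was tested.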

How the results depend on the processing

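For the 5 receptor genes, 0 were called by limma in each comparison and under the alternatives run for it and with each animal left out. Per gene these were 9 to 12 alternatives between the groups and among runs, and 4 for each exposed run against the control runs (scanner-processed signals, slide as a fixed term, 1 control run alone and leaving out the slide of controls). They gave 1117 differences for single genes, the lowest adjusted p being 0.0931, for Arnt in exposed run 1 with scanner-processed signals (0.29). With detection set at Cy5 above 2 times the local background, 3 genes instead of 5 would be measurable, since Arnt and Cyp1b1 drop out. Centring on slides gave 1 called pair of genes instead of 0, by a permutation that did not allow for the slide means taken out. Animals could not be paired between the groups because the groups share no animal numbers. Slide, which 7 times held both groups, served as the block instead.

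Counts over all probes moved more. Between exposed and control livers, 4 probes were called (2875 at an unadjusted p under 0.05), against 17 without background correction, 17 in the value table, 0 with median centring, 2 with slide as a fixed term, 2 without the older software version and 2 without the slide that held only controls, an alternative chosen after the data were seen. Among exposed runs 976 became 125 with median centring, 167 with fixed slides, 164 with array position as a term and 391 without the older version. Among control runs 21 became 4, 3 and 12 with median centring, fixed slides and array position, and 8 without the slide of controls. Exposed run 1 had 1132 probes, 1983 with processed signals, 427 with fixed slides and 58 against control run 1 alone. Run 2 had 4, and 0 under the same 3 settings. Run 3 had 31, against 3, 0 and 2 under them and 17 without the slide of controls. Leaving out 1 animal gave 2 to 106 probes in the pooled comparison, 399 to 1178 among exposed runs, 10 to 23 among control runs, and 481 to 1407, 0 to 67 and 0 to 133 in runs 1, 2 and 3, with the slide correlation kept from all arrays. The cause was not tested. Low Cy5 signal limits Cyp1a1, Ahrr, Cyp1b1 and Arnt most.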
